A study of Ovis aries with 6 samples.

Results

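Genes of the extracellular matrix were examined in 6 sheep libraries labelled hypothalamus. The set was chosen by gene name and holds the collagen chains, the laminin chains, 4 small leucine-rich proteoglycans, the adhesive and elastic fibre glycoproteins, and the lecticans with their tenascin and link protein partners. It has 77 of the 26067 features in the deposited tables, each with a name of its own. Collagens form fibrils, networks and sheets, and laminins with type IV collagen build the basement membrane that surrounds vessels and separates tissue layers. In the brain such fibrous matrix is largely restricted to vessels, meninges and choroid plexus, whereas the space between neurons holds hyaluronan bound by lecticans, link proteins and tenascin-R, which condense into perineuronal nets. The anterior pituitary, by contrast, has a capillary-rich stroma with collagen-producing cells.

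Full-length cDNA made from tissue RNA was amplified and read on an Oxford Nanopore instrument. The 3 HP animals were small-tailed Han sheep, a breed the submitters call highly reproductive, and the 3 LP animals were Wadi sheep, called less reproductive. Breed therefore cannot be told apart from reproductive class. All 6 animals were described as healthy and of similar body composition, no treatment was given in the labels, and no source used here gives an age. The letter before the number differs between column names and sample titles, so the number alone ties a column to its animal, and each statement on HP or LP rests on that match. The labels give separate samples, and p-values measure the spread between them.

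The libraries held 1981644 to 2732911 counts. A count of 0 allows up to 3 counts, which is 1.10 to 1.51 CPM, that is, counts per 1000000 counts of a library. Limits and intervals cover counting error alone, since amplified reads are not independent molecules. The label hypothalamus was checked against marker lists. Of 14 hypothalamic peptide genes, 7 had no count in HP and 6 had none in LP, and the list summed to 96.5 to 149 CPM in HP and 4.81 to 9.59 CPM in LP. The anterior pituitary list summed to 58.2 to 145 CPM in HP and 47217 to 300090 CPM in LP, and all 11 of its tested genes were higher in LP. The list of cerebellar neurons summed to 4658 to 5048 CPM in HP and 28.5 to 117 CPM in LP, and all 12 of its genes were higher in HP. The marker levels thus go against a shared label of hypothalamus, with cerebellar transcripts high in HP and pituitary transcripts high in LP. Their part in the results on matrix genes was not tested, and breed cannot be told apart from them. In tissue RNA, fewer cells of a type and less RNA per cell cannot be told apart either.

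The proteoglycan genes DCN, BGN and LUM and the collagen genes COL3A1, COL8A1 and COL12A1 were among those higher in LP, while the type I collagen genes COL1A1 and COL1A2 were not called. The perineuronal net genes HAPLN4 and TNR and the collagen gene COL27A1 were higher in HP, while the lectican gene VCAN was higher in LP. The lectican genes ACAN, BCAN and NCAN and the link protein gene HAPLN1 had too few counts for a test. HP and LP were compared with edgeR's quasi-likelihood test over all genes, with p-values adjusted by Benjamini and Hochberg and called under 0.05, and "edgeR adjusted p" stands for this test throughout. Only 30 of the 77 members had enough counts for a test. A member can pass that filter through the group in which it is high, so counts over the tested members describe them and no more. Of the 30, 15 were higher in LP, where 24.1% of all 13078 tested genes were, and 3 were higher in HP, where 27.1% of all tested genes were. Both shares are also the comparison for the calls in each class and list below, where counts are small. Without HP replicate 1, 2 or 3, 7 of 35, 9 of 35 and 8 of 36 tested members were higher in LP. Of all tested genes, 15.7%, 14.8% and 18.2% were higher in LP in these fits. Without LP replicate 2, 27 of 35 were higher in LP (24.2% of all tested genes). Without LP replicate 1, 10 of 31 were higher in LP (21.3% of all tested genes). Without LP replicate 3, 17 of 32 were higher in LP and 5 in HP (27.2% and 29.7% of all tested genes). With all libraries, 18 of the 30 were called in either direction, against 51.2% of all tested genes. The median log2 fold change of the 30, HP minus LP, was -1.84, against 0.02 for all tested genes. The HP and LP values did not overlap in 17 of the 30, against 62.9% of all tested genes, with LP above in 13 (29% of all tested genes) and HP above in 4 (33.9%). In CPM scaled with TMM factors, the unit of all single-gene levels below, the tested members ran up to 6769 CPM, for SPARC in LP replicate 3.

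**Figure D1:**
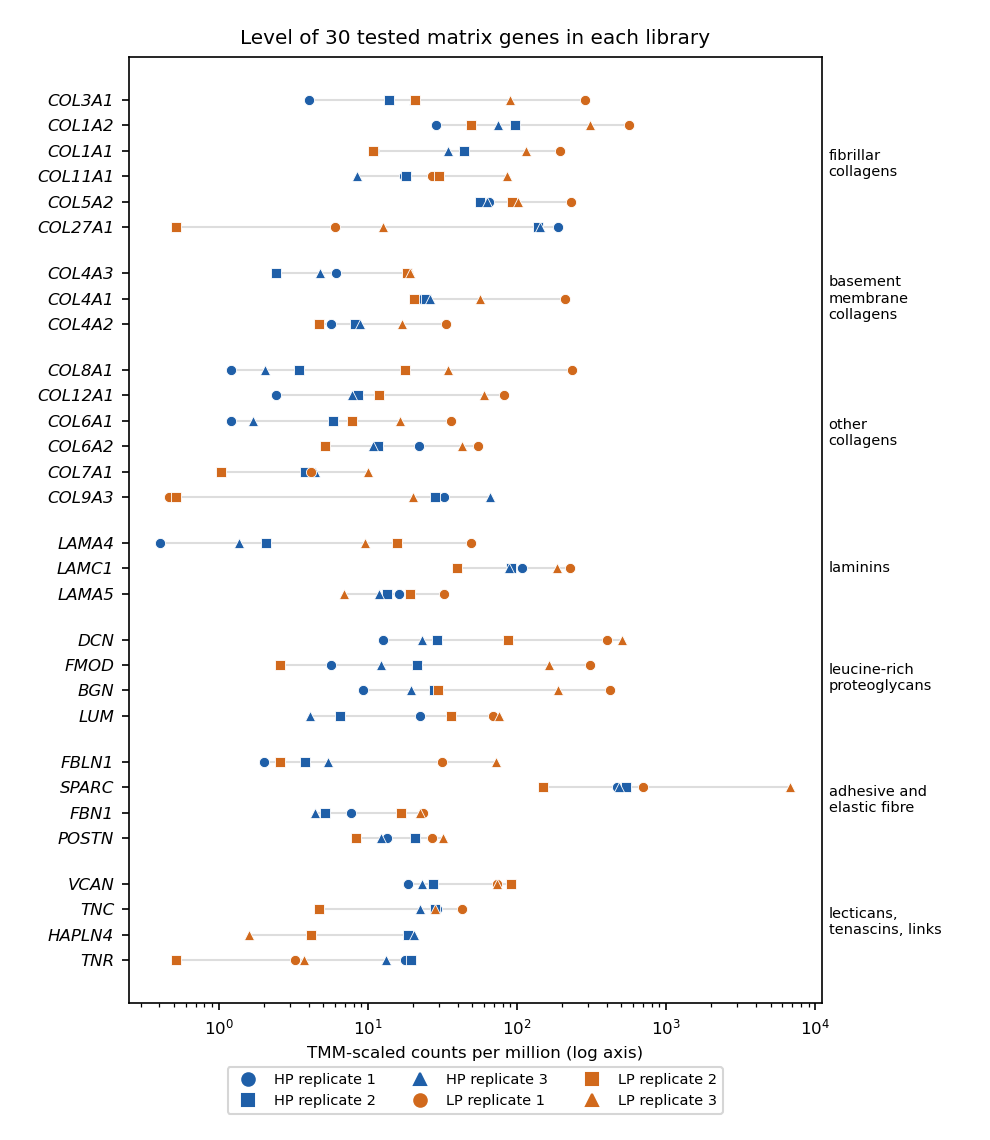
Level of each tested matrix gene in each library, in TMM-scaled CPM on a log axis, with 1 point for each library, HP in blue and LP in orange, and genes grouped by class. LP replicate 2 (orange squares) was the lowest LP library for 24 of the 30 genes, and SPARC in LP replicate 3 was the highest point, at 6769 CPM.

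Of the 11 fibrillar collagen genes, whose chains assemble into the striated fibrils of connective tissue, 6 were tested. Of these, 3 were higher in LP, 1 was higher in HP and 2 were not called. COL3A1, which encodes the chain of type III collagen of vessel walls and soft stroma, had 10, 40 and 60 counts in HP replicates 1 to 3 and 617, 40 and 169 in LP replicates 1 to 3. After scaling it stood at 12.7 ± 8.21 CPM (SD, n = 3) in HP against 131 ± 137 CPM (SD, n = 3) in LP, with LP replicate 2, at 20.7 CPM, just above the highest HP library, at 20.4 CPM. It was 10.2-fold higher in LP (edgeR adjusted p = 0.0236), a call lost without HP replicate 1, 2 or 3 or LP replicate 1 (edgeR adjusted p = 0.0877, 0.0847, 0.0521 and 0.0638). Without LP replicate 1 its log2 fold change was -2.09 instead of -3.36. COL1A2 and COL1A1, the partner chains of type I collagen, had 71, 284 and 219 counts and 27, 129 and 102 counts in HP. In LP they had 1229, 95 and 582 and 422, 21 and 216 counts. In both genes LP replicate 2 lay within or below the range of HP, and neither was called (edgeR adjusted p = 0.0584 for COL1A2 and 0.132 for COL1A1). Without LP replicate 2 both were higher in LP, with log2 fold changes of -2.74 and -2.39 (edgeR adjusted p = 0.00678 and 0.0122). Without LP replicate 1 they were -1.41 and -1.05, against -2.20 and -1.83 with all libraries, and not called (edgeR adjusted p = 0.178 and 0.381).

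COL5A2 and COL11A1 encode chains of the minor fibrillar collagens that limit fibril diameter. COL5A2 had 159, 163 and 186 counts in the HP libraries against 498, 177 and 190 in LP, and was 2.30-fold higher in LP (edgeR adjusted p = 0.0312). COL11A1 had 43, 52 and 25 counts in the HP libraries against 58, 58 and 162 in LP, and was 3.25-fold higher in LP (edgeR adjusted p = 0.0324). Each LP library lay above each HP library in both genes, with LP replicate 1 alone high in COL5A2 and LP replicate 3 alone high in COL11A1. Both calls were lost without HP replicate 1, 2 or 3 (edgeR adjusted p from 0.0834 to 0.124), and that of COL5A2 also without LP replicate 1 (edgeR adjusted p = 0.0529). The log2 fold change of COL11A1, -1.70, was -0.99 without LP replicate 3. The other minor fibrillar genes were close to 0. COL5A1 had 16 counts over LP and 0 over HP, COL24A1 had 6 in all, COL5A3 had 2, COL2A1, the cartilage collagen, had 1, and COL11A2 had none.

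COL27A1, a fibrillar collagen gene known from cartilage, went the other way. It had 464, 399 and 418 counts in the HP libraries against 13, 1 and 24 in LP, so that the groups were far apart. At 156 ± 28.0 CPM (SD, n = 3) in HP against 6.40 ± 6.10 CPM (SD, n = 3) in LP, it was 24.2-fold higher in HP, a log2 fold change of 4.60 ± 0.74 (SE) (edgeR adjusted p = 0.00275). The call held without each single library, and without LP replicate 3 the log2 fold change was 5.47. Its share of the fibrillar class in HP depended on the scale, at 156 of a class sum of 341 ± 26.4 CPM (SD, n = 3) and at 116 ± 13.3 of a class sum of 129 ± 12.2 TPM (SD, n = 3). How transcript length enters that share is described with the implied lengths.

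Basement membrane collagens had 3 tested genes of 8, of which 1 was higher in LP. COL4A1 and COL4A2 encode the chains of the type IV collagen found in nearly all basement membranes. COL4A1 had 57, 71 and 77 counts in the HP libraries against 453, 39 and 106 in LP, and COL4A2 had 14, 24 and 26 and 72, 9 and 32. In both, LP replicates 1 and 3 lay above HP and LP replicate 2 below, and neither was called (edgeR adjusted p = 0.0625 and 0.131). Without LP replicate 2 both were higher in LP, with log2 fold changes of -2.47 and -1.75 (edgeR adjusted p = 0.00923 and 0.0135). Without LP replicate 1 those of COL4A1 and COL4A2 were -0.63 and -0.49, against -1.95 and -1.26 with all libraries. COL4A3, a chain of the type IV network best known from kidney and lung, had 15, 7 and 14 counts in the HP libraries against 40, 35 and 36 in LP. Its LP libraries were nearly equal, at 18.5 ± 0.473 CPM (SD, n = 3) against 4.41 ± 1.86 CPM (SD, n = 3) in HP, and it was 4.20-fold higher in LP, a log2 fold change of -2.07 ± 0.38 (SE) (edgeR adjusted p = 0.00410), a call kept without each single library. COL4A4 and COL4A5, which encode the partners of COL4A3 in that network, were listed with 1, 3 and 5 and with 7, 3 and 1 counts in LP and with 0 in HP, too few for a test. COL18A1 and COL15A1 encode the heparan or chondroitin sulphate-bearing collagens at the outer face of basement membranes. They had 30, 0 and 4 and 3, 0 and 9 counts in the LP libraries and 0 over HP. COL4A6 had 4 in LP, all in LP replicate 1.

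The remaining collagen genes encode network, beaded filament, fibril-associated and membrane-bound chains. Of 24, 6 were tested, 3 were higher in LP and 0 in HP. COL8A1, a short-chain collagen of vessel walls and endothelial matrix, had the largest change of all tested members, with 3, 10 and 6 counts in the HP libraries against 507, 34 and 65 in LP. It was 41.3-fold higher in LP, a log2 fold change of -5.37 ± 1.12 (SE) (edgeR adjusted p = 0.00678). LP replicate 1 held most of these counts, and without it the log2 fold change was -3.49 (edgeR adjusted p = 0.00483). COL12A1, a fibril-associated collagen of dense connective tissue, had 6, 25 and 23 counts in the HP libraries against 178, 23 and 114 in LP, and was 8.07-fold higher in LP (edgeR adjusted p = 0.0135, or 0.0577 without HP replicate 1). COL14A1, its relative, had 1, 6 and 5 counts in the HP libraries against 48, 1 and 11 in LP, and was not tested.

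COL6A1 and COL6A2, which encode chains of the beaded filament collagen VI around many cell types, were both tested. COL6A1 had 3, 17 and 5 counts in the HP libraries against 78, 15 and 31 in LP and was 6.71-fold higher in LP (edgeR adjusted p = 0.0191). That call was lost without HP replicate 1 or 3 or LP replicate 1 (edgeR adjusted p = 0.0803, 0.0761 and 0.0567). Its log2 fold change of -2.75 was -3.65 without HP replicate 2 and -2.00 without LP replicate 1. COL6A2 had 54, 34 and 32 counts in the HP libraries against 119, 10 and 81 in LP and was not called (edgeR adjusted p = 0.200, or 0.00980 without LP replicate 2). COL6A3, the longest chain of this collagen, had 15, 11 and 1 counts in the HP libraries against 1, 0 and 1 in LP. Relative to TMM-scaled library totals its counts stood 9.71 to 1 (95% counting interval 2.44 to 84.2), and it was not tested. COL9A3, a chain of the fibril-associated collagen IX, had 80, 82 and 195 counts in the HP libraries against 1, 1 and 38 in LP. All HP values lay above LP, but it was not called (edgeR adjusted p = 0.0851). Without LP replicate 3 its log2 fold change was 6.27 instead of 2.60 and passed (edgeR adjusted p = 3.66e-04). COL7A1, the anchoring fibril collagen, had 10, 11 and 13 counts in the HP libraries against 9, 2 and 19 in LP and was not called (edgeR adjusted p = 0.716). The other genes of this class had few counts, with 0 in every library for COL10A1 and COL6A6.

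**Figure D2:**
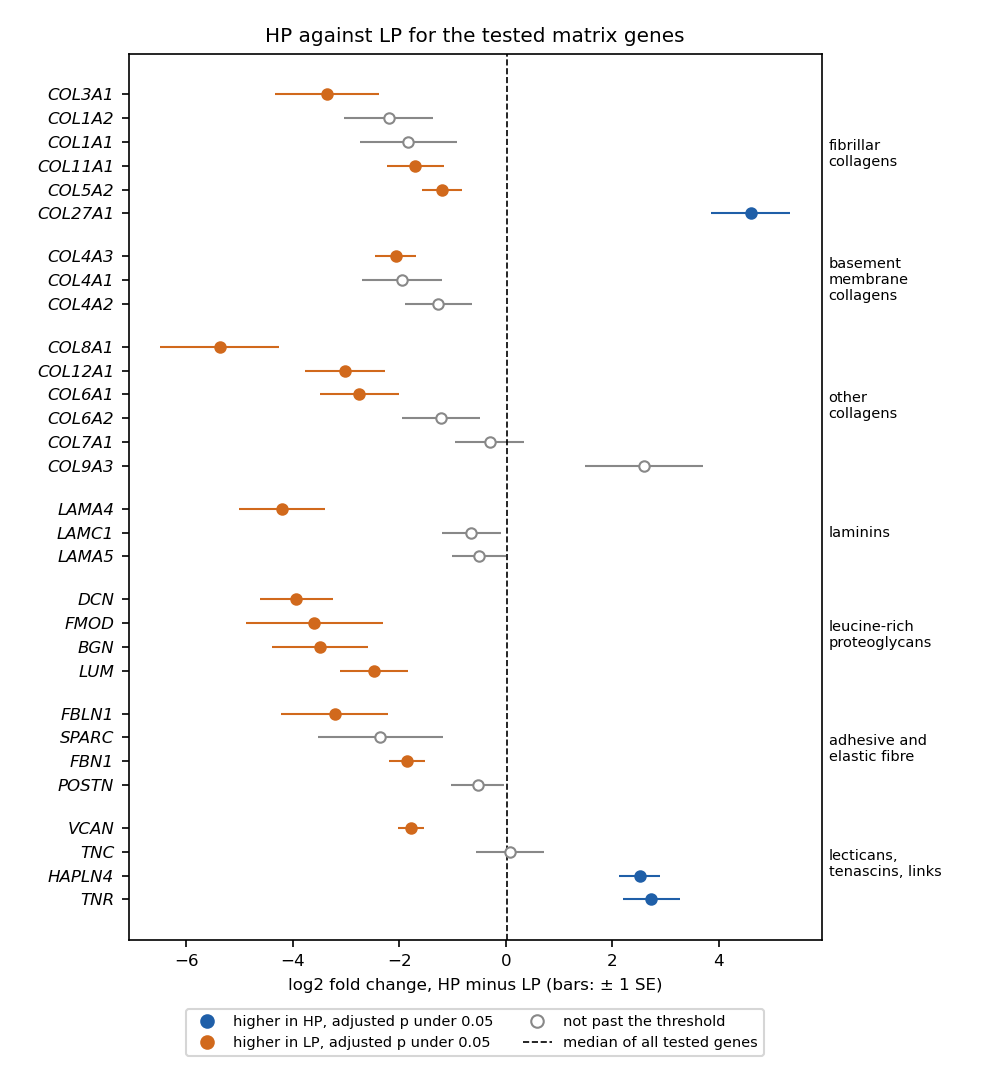
Log2 fold change, HP minus LP, of the tested matrix genes with bars of 1 standard error, from the edgeR fit over all genes. Orange points were higher in LP (15 genes), blue points were higher in HP (3 genes), open points were not called (12 genes), and the dashed line is the median of all tested genes, at 0.02.

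Laminins are trimers of an alpha, a beta and a gamma chain. Of 11 chains, 3 were tested and 1 was called. LAMA4, the alpha chain of endothelial basement membranes, had 1, 6 and 4 counts in the HP libraries against 107, 30 and 18 in LP. It was 18.4-fold higher in LP (edgeR adjusted p = 0.00491), and its log2 fold change of -4.20 was -3.21 without LP replicate 1. LAMC1, the gamma chain of most laminins, had 265, 266 and 260 counts in the HP libraries against 488, 76 and 349 in LP, and LAMA5, an alpha chain of mature vessels and epithelia, had 40, 39 and 35 and 70, 37 and 13. For both, the LP libraries lay on either side of HP, and neither was called (edgeR adjusted p = 0.354 and 0.439). Among the untested chains LAMB1 had 5, 1 and 12 counts in LP against none in HP, and LAMC3 had 13 in HP and 37 in LP, where LAMB1 is the beta chain of many vascular laminins and LAMC3 is a gamma chain. LAMA2, a chain of brain vessels and muscle, had 14 and 21. LAMB3, an epithelial chain, had 14, 15 and 7 counts in the HP libraries against 3, 0 and 0 in LP. Relative to TMM-scaled library totals its counts stood 8.63 to 1 (95% counting interval 2.73 to 43.8).

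All 4 small leucine-rich proteoglycan genes, whose products bind collagen fibrils and set their spacing, were tested, and all 4 were higher in LP. DCN (decorin) had 31, 85 and 68 counts in the HP libraries against 869, 168 and 954 in LP. It stood at 21.6 ± 8.41 CPM (SD, n = 3) in HP against 331 ± 217 CPM (SD, n = 3) in LP, and was 15.2-fold higher in LP, a log2 fold change of -3.93 ± 0.68 (SE) (edgeR adjusted p = 0.00348), a call kept without each single library. LUM (lumican) had 55, 19 and 12 counts in the HP libraries against 150, 70 and 142 in LP, and was 5.54-fold higher in LP (edgeR adjusted p = 0.0153). Without HP replicate 1 its log2 fold change was -3.41 instead of -2.47, and without HP replicate 2 it was not called (edgeR adjusted p = 0.0731). In DCN and LUM each LP library lay clearly above the HP libraries.

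BGN (biglycan) had 23, 81 and 57 counts in the HP libraries against 911, 57 and 357 in LP, and FMOD (fibromodulin) had 14, 62 and 36 and 671, 5 and 311. LP replicate 2 lay just above the highest HP library in BGN and below every HP library in FMOD. BGN was 11.2-fold higher in LP (edgeR adjusted p = 0.0155), a call lost without HP replicate 1 or 3 (edgeR adjusted p = 0.0711 and 0.0600). Without LP replicate 1 its log2 fold change was -2.52 instead of -3.49. FMOD was 12.1-fold higher in LP at the edge of the threshold (edgeR adjusted p = 0.0498). It was lost without HP replicate 1, 2 or 3 or LP replicate 1 (edgeR adjusted p from 0.106 to 0.166), and its log2 fold change of -3.59 became -2.65 when LP replicate 1 was left out and -4.20 without LP replicate 2. The class summed to 52.7, 90.4 and 65.5 CPM of the library totals in HP and to 1138.5, 124 and 890.2 CPM in LP.

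Of 9 genes for adhesive and elastic fibre glycoproteins, 4 were tested and 2 were higher in LP. FBN1, which encodes fibrillin, the scaffold of elastic microfibrils, had 19, 15 and 13 counts in the HP libraries against 51, 32 and 42 in LP. It was 3.61-fold higher in LP (edgeR adjusted p = 0.00388), and the call held without each single library. FBLN1, which encodes a fibulin of basement membranes and elastic fibres, had 5, 11 and 16 counts in the HP libraries against 68, 5 and 137 in LP. It was 9.25-fold higher in LP (edgeR adjusted p = 0.0318), with LP replicate 2 within the HP range. That call was lost without any single library other than LP replicate 2 (edgeR adjusted p from 0.0517 to 0.121), and its log2 fold change of -3.21 was -2.20 without LP replicate 3.

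SPARC, a collagen-binding glycoprotein of fibroblasts, endothelium and glia, had the most counts of all members, with 1160, 1567 and 1414 in HP against 1525, 289 and 12786 in LP. The LP libraries spanned a 45.2-fold range around HP, and SPARC was not called (edgeR adjusted p = 0.129). Its log2 fold change of -2.36 became 0.18 without LP replicate 3 (edgeR adjusted p = 0.792) and -2.90 without LP replicate 2 (edgeR adjusted p = 0.0214). POSTN, which encodes periostin, a collagen-binding protein of fibroblasts, had 33, 60 and 36 counts in the HP libraries against 58, 16 and 60 in LP (edgeR adjusted p = 0.397). FN1, which encodes fibronectin, had 2, 1 and 3 counts in the HP libraries against 31, 1 and 13 in LP and was not tested. The fibulin gene FBLN5 had 5 counts in HP and 39 in LP, the fibrillin gene FBN2 had 2 and 10, FBLN2, another fibulin gene, had 0 and 2, and ELN, the elastin gene, had 2 in HP and 19 in LP, all 19 in LP replicate 1.

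The matrix genes of neural tissue were called in both directions. Of 10 genes for lecticans, tenascins and link proteins, 4 were tested, of which 2 were higher in HP, 1 was higher in LP and 1 was not called. HAPLN4, which encodes a link protein of perineuronal nets and is known from cerebellar and brainstem synapses, had 46, 54 and 60 counts in the HP libraries against 9, 8 and 3 in LP. It stood at 19.2 ± 1.04 CPM (SD, n = 3) in HP against 3.29 ± 1.48 CPM (SD, n = 3) in LP, 5.71-fold higher in HP, a log2 fold change of 2.51 ± 0.39 (SE) (edgeR adjusted p = 0.00236). TNR, which encodes tenascin-R, the crosslinker of these nets, had 44, 57 and 39 counts in the HP libraries against 7, 1 and 7 in LP, and was 6.64-fold higher in HP, a log2 fold change of 2.73 ± 0.54 (SE) (edgeR adjusted p = 0.0055). Both calls held without each single library, and the groups were well apart. VCAN, which encodes versican, a lectican of vessels, developing tissue and glia, had 46, 79 and 68 counts in the HP libraries against 159, 176 and 138 in LP. It was 3.44-fold higher in LP, a log2 fold change of -1.78 ± 0.24 (SE) (edgeR adjusted p = 0.00152), with LP libraries at 79.2 ± 10.4 CPM (SD, n = 3), and kept its call without each single library. In LP replicate 2, the lowest LP library for most members, VCAN had its highest value. TNC (tenascin-C) had 72, 82 and 66 counts in the HP libraries against 93, 9 and 53 in LP (edgeR adjusted p = 0.934).

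The other 3 lecticans and 3 of the link proteins, several of them known from adult brain, had too few counts for a test. NCAN (neurocan) had 2, 1 and 0 counts in HP but 0 in all of LP, where 3 counts allow up to 1.24 to 1.51 CPM in a library. BCAN (brevican) had 0, 1 and 3 in HP against 0, 0 and 16 in LP, and ACAN (aggrecan) had none in HP and 2, 0 and 2 in LP. HAPLN2, which encodes the link protein of the nodes of Ranvier, had 82 counts, all in LP replicate 3. In that library the oligodendrocyte list summed to 5775 CPM, against 73.1 and 19.0 CPM in LP replicates 1 and 2 and 663 to 960 CPM in HP. HAPLN1 had 2, 2 and 2 counts in the HP libraries against 17, 0 and 3 in LP, and HAPLN3 had 1, 5 and 7 and 11, 2 and 5.

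Among the 47 members without a test, whose totals over the 6 libraries ran from 0 to 82 counts, 18 had counts in LP alone, where 13.6% of all 12989 features without a test did, and 2, COL26A1 and NCAN, in HP alone (7.33% of those features). A further 24 had counts in both groups and 3 had none in any library. HP and LP values did not overlap in 7 of the 47, against 21.8% of all features without a test. LP was above in COL4A4, COL4A5, COL28A1, LAMB1 and LAMC3 (16.5% of those features) and HP in COL17A1 and LAMB3 (5.3%).

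By the domain annotation the authors deposited, all 43 collagen genes carry a collagen triple helix repeat, the 11 fibrillar ones also the fibrillar C-terminal domain, and 6 the C-terminal domain of type IV collagen. The link domain, which binds hyaluronan, is listed for 8 genes, the 4 lecticans and the 4 link proteins. Fibronectin type III repeats are shared across classes, by COL6A3, COL7A1, COL12A1, COL14A1, FN1, TNC and TNR. Several members are neighbours in the sheep genome, which the choice by name did not use. By RefSeq gene order on the assembly ARS-UI_Ramb_v3.0, from which no coordinate was taken, 14 pairs of members had no other coding gene between them. Each of the 4 lectican genes lay beside a link protein gene, VCAN beside HAPLN1, ACAN beside HAPLN3, BCAN beside HAPLN2 and NCAN beside HAPLN4. HAPLN4 was called higher in HP while NCAN was at 0 to 2 counts in every library, and VCAN was higher in LP in all 3 libraries while HAPLN1 had no count in LP replicate 2. HAPLN2 and BCAN both had their highest count in LP replicate 3. Among collagens, COL3A1 and COL5A2 were adjacent and both higher in LP, as were DCN and LUM among the proteoglycans. COL4A1 and COL4A2, and COL6A1 and COL6A2, were adjacent as well, with the values given above.

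The number of members higher in LP fell without any single HP library or LP replicate 1, and rose most without LP replicate 2. LP replicate 2 was the lowest of the LP libraries in 24 of the 30 tested members, against 34.3% of all tested genes. LP replicate 1 was the highest in 17 (28.2% of all tested genes) and LP replicate 3 in 11 (38%). The median ratio of the highest to the lowest LP library was 7.13 over the tested members and 1.89 over all tested genes, and within HP it was 2.06 and 1.44. Without LP replicate 2, 27 of 35 tested members were higher in LP, where 24.2% of all tested genes were, and 3 were higher in HP, against 24.3%. The 27 held all 15 genes called with all libraries, 8 that had been tested and not called (COL1A1, COL1A2, COL4A1, COL4A2, COL6A2, LAMC1, POSTN and SPARC) and 4 not tested before (COL14A1, FBLN5, FN1 and LAMC3). The 3 members higher in HP were again COL27A1, HAPLN4 and TNR. Without SPARC, the members summed to 761, 860 and 846 CPM of the library totals in HP and to 3629, 543 and 2394 CPM in LP.

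**Figure D3:**
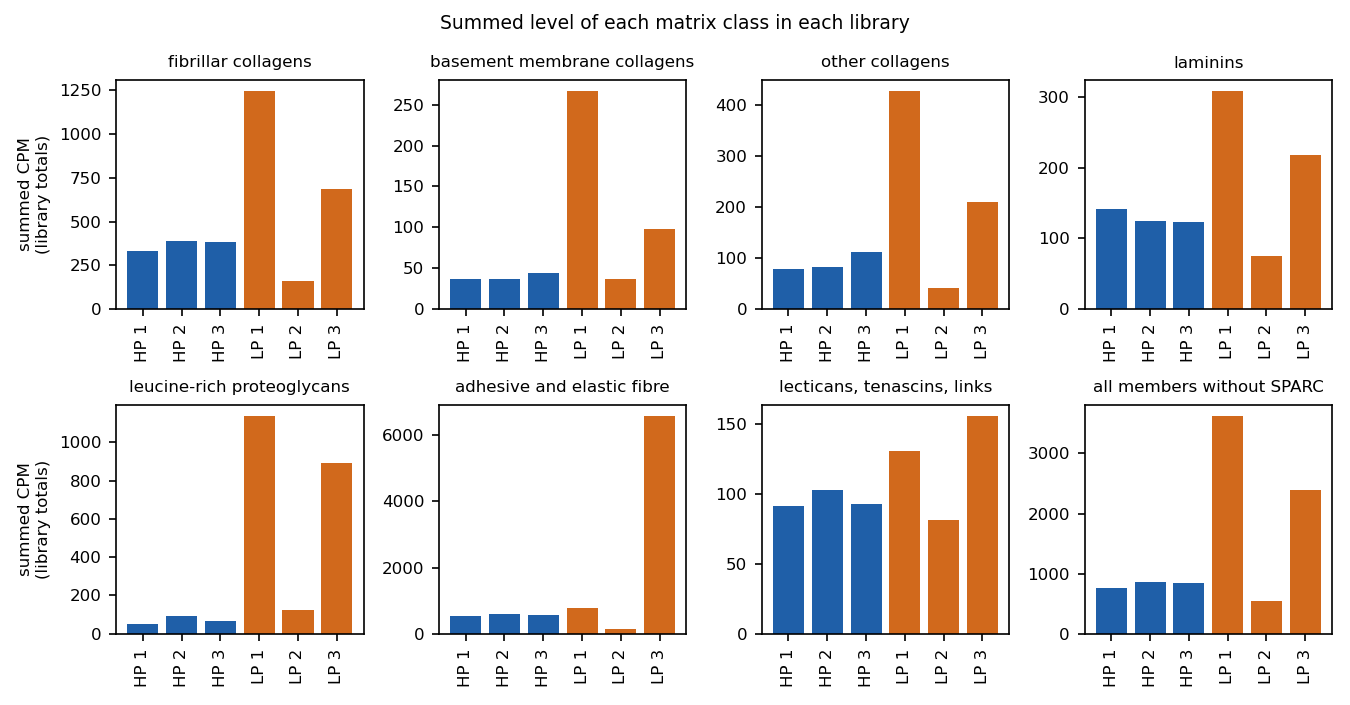
Summed CPM of the library totals of each matrix class in each library, with HP in blue, LP in orange and all members without SPARC in the last panel. In all 7 classes and in the last panel LP replicates 1 and 3 both stand above HP, and LP replicate 3 reached 6592 CPM in the class that holds SPARC.

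Marker lists of several cell types were lowest in LP replicate 2, those of fibroblasts, meningeal fibroblasts, mural cells, endothelium, astrocytes, oligodendrocytes and choroid plexus among them. The anterior pituitary list was highest there, at 142321, 300090 and 47217 CPM in LP replicates 1, 2 and 3. All these sums are shares of the library totals, and the part of pituitary transcripts in the other sums was not tested. The fibroblast list, with 11 genes in the tables, summed to 63.0 to 82.3 CPM in HP and to 421, 49.6 and 430 CPM in LP replicates 1, 2 and 3. Of these 11 genes, DPT and TCF21 had no count in HP, and each had a count in LP. Only 2 genes of the list were tested, and 1 was higher in LP. Of all tested genes, 24.1% were higher in LP and 27.1% higher in HP. The mural cell list of 11 genes summed to 123 to 327 CPM in HP and to 8851, 95.5 and 330 CPM in LP. Of its 7 tested genes 1 was higher in LP, against 24.1% of all tested genes. NOTCH3 had no count in HP, and each gene of the list had a count in LP. Endothelium, with 12 genes, summed to 131 to 174 CPM in HP and 299, 43.8 and 238 CPM in LP. Of its 9 tested genes 3 were higher in LP and 1 in HP, against 24.1% and 27.1% of all tested genes. The list of microglia and macrophages summed to 39.7 to 58.2 CPM in HP and 136 to 264 CPM in LP, with 6 of 7 tested genes higher in LP. That of pituicytes and folliculostellate cells summed to 44.6 to 67.7 CPM in HP and 424 to 458 CPM in LP, with 2 of 4 tested genes higher in LP. LP replicate 1, with the most mural transcripts, was the highest LP library in 17 of the 30 tested members. Among these were COL8A1, COL4A1, COL3A1, BGN and TNC. The part of mural cells in these values was not tested.

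LP replicate 3, which held most SPARC, was also the library with the most glial and choroid plexus transcripts. Astrocyte genes summed to 10808 CPM there, to 201 and 176 CPM in LP replicates 1 and 2 and to 6264 to 7955 CPM in HP. The meningeal fibroblast list summed to 7749 CPM there, 945 and 555 CPM in the other LP libraries and 2149 to 2726 CPM in HP, with 14616 counts of PTGDS, a gene that oligodendrocytes and choroid plexus use as well. Choroid plexus genes summed to 7411 CPM in LP replicate 3 and 4537 CPM in HP replicate 3, and to between 9.51 and 120 CPM in the other libraries. The part of these cell types in the matrix values was not tested. With both libraries rich in choroid plexus genes left out, 13 members were higher in LP and 5 higher in HP, where 25.1% and 28.2% of all tested genes were.

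The deposited TPM hold a measure of length that the counts do not. CPM divided by TPM gives, up to a constant, the length by which the counts of a gene were divided, and it is given here relative to the median gene with at least 20 counts on average. The type I and XI collagen genes COL1A1, COL1A2 and COL11A1 stood at 6.00 to 8.45 times the median gene. COL27A1, also a gene of long mRNA, stood at 0.392. TNR stood at 0.0662, LAMB3 at 0.0315, COL6A3 at 0.0724 and LAMA2 at 0.0660. In all, 12 of the 74 members with a count lay below 1, among them FBN1 (0.297), LAMA4 (0.383), TNC (0.436), COL4A2 (0.467), LAMC1 (0.483), COL8A1 (0.696) and VCAN (0.842). HAPLN4 stood at 4.85 and COL9A3 at 3.67, and of the proteoglycan genes DCN at 1.79, LUM at 2.22, BGN at 2.61 and FMOD at 3.33. The counts of COL27A1 and TNR were thus divided by lengths far below those of the type I and XI collagen genes. No source used here says how the authors set these lengths, and which part of each gene the reads cover was not analysed here. Implied length also differed between groups or libraries. It was 3.67 in HP and 1.89 in LP for COL5A2 and 7.75 and 3.74 for COL12A1, and for LAMA4, with few counts in HP, it ran from 0.231 to 8.99 over the HP libraries. For COL6A3 it was 0.0666 in HP and 13.4 in LP, the latter from 2 counts.

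Implied length and direction were related over all genes. The length of a gene was pooled over the 6 libraries. Where it differed between groups it follows the group with more TPM, so it is not measured apart from the fold change. The tested genes were put in 4 bins of nearly equal size by implied length. Among the genes of the shortest bin, 52% were higher in HP, 4.74% in LP, with a median log2 fold change of 1.10. From there the medians did not fall steadily, at 0.01, -0.60 and -0.44 in the following bins. In the next-to-longest bin 15.8% were higher in HP and 37.3% in LP, and in the longest 15.8% and 31.7%. The Spearman correlation of implied length and log2 fold change over 13078 genes, which are not independent replicates, was -0.37. Of the 30 tested members, 15 fell in the longest bin, where 7 were higher in LP and HAPLN4 was higher in HP. Of the 2 in the shortest bin, TNR was higher in HP and FBN1 higher in LP. The part of length in the matrix values was not tested.

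**Figure D4:**
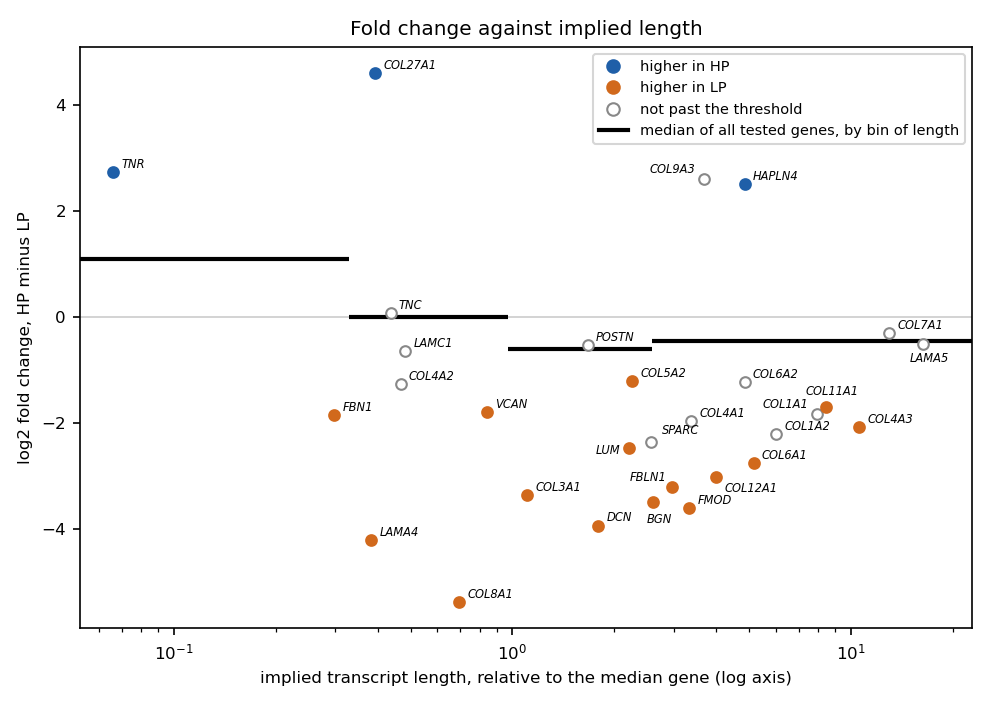
Log2 fold change, HP minus LP, of the tested matrix genes against implied transcript length relative to the median gene, on a log axis, with calls in colour. Black bars are the medians of all tested genes in each of 4 bins of length, which stand at 1.10, 0.01, -0.60 and -0.44 from the shortest to the longest, and TNR and COL27A1 lie at 0.0662 and 0.392 of the median length.

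On the TPM scale, which is per length, SPARC was the highest member in LP, at 401 ± 561 TPM (SD, n = 3), followed by LAMC1 at 116 ± 74.7 TPM (SD, n = 3) and DCN at 80.9 ± 50.8 TPM (SD, n = 3). These spreads overlap, and the order of the 3 is not settled. In HP COL27A1 was the highest, followed by TNR at 74.2 ± 23.7 TPM (SD, n = 3), LAMC1 at 71.9 ± 11.4 TPM (SD, n = 3) and SPARC at 49.6 ± 7.56 TPM (SD, n = 3). TNR and LAMC1 did not differ beyond their spread. The short implied lengths of COL27A1, TNR and LAMC1 enter these TPM directly.

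Some members overlap other annotated genes from start to end of the gene, without regard to strand or exons. No source used here says whether reads were counted by strand. Whether reads of 1 gene were counted for the other was not tested. COL9A3 overlaps TCFL5, which had 125, 152 and 190 counts in the HP libraries against 57, 49 and 290 in LP and was not called (edgeR adjusted p = 0.740). COL8A1 overlaps FILIP1L, which had 16, 9 and 18 and 57, 11 and 10 counts, fewer than COL8A1 in each LP library, and was not called (edgeR adjusted p = 0.163). LAMB3 overlaps G0S2 and HSD11B1, which were both higher in LP, with 23, 30 and 15 counts and 20, 58 and 9 counts there against 0 and 8 in all of HP (edgeR adjusted p = 0.00173 and 0.00718). It also overlaps TRAF3IP3 and C12H1orf74, which were not tested. COL1A1, COL11A1, COL27A1 and TNC, among others, overlap loci that carry a LOC number in place of a symbol.

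Genes that make, cut and bind the matrix were taken from 7 lists. Of 167 genes, 161 were in the tables and 87 were tested, of which 34 were higher in LP, where 24.1% of all tested genes were, and 15 were higher in HP, where 27.1% were, with a median log2 fold change of -1.11. Counts in single lists are small and are given as a description. In collagen maturation 8 of 17 tested genes were higher in LP and 3 in HP. P4HB, a subunit of the prolyl hydroxylase that stabilises the triple helix, was 2.68-fold higher in LP, and PCOLCE, which speeds the removal of the procollagen C-propeptide, was 5.80-fold higher in LP (edgeR adjusted p = 0.00481 and 0.00678). TLL1, which encodes a procollagen proteinase, was 9.01-fold higher in HP (edgeR adjusted p = 0.00416). ADAMTS2, which encodes another, had 19, 53 and 27 counts in the HP libraries against 2, 0 and 1 in LP and was higher in HP (edgeR adjusted p = 0.00283).

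Of 10 tested matrix proteases 3 were higher in LP and 2 in HP, shares near those of all tested genes (24.1% and 27.1%). CTSK, a collagen-degrading cathepsin, and ADAM17, a sheddase, were 6.95-fold and 3.64-fold higher in LP (edgeR adjusted p = 0.00397 and 0.00509). MMP24 and MMP16, membrane-bound metalloproteinases known from neurons, were 15.6-fold and 3.24-fold higher in HP (edgeR adjusted p = 3.16e-04 and 0.00371). The TIMP genes, which encode inhibitors of these enzymes, went both ways. TIMP1 and TIMP3 were 4.50-fold and 16.7-fold higher in LP (edgeR adjusted p = 0.00110 and 0.00475). TIMP4 and TIMP2 were 31.1-fold and 3.00-fold higher in HP (edgeR adjusted p = 0.00330 and 0.0292). In TPM the values of TIMP2 overlapped, at 31.9, 56.4 and 54.5 in HP and 51.5, 18.7 and 46.1 in LP. Those of TIMP1, TIMP3 and TIMP4 did not overlap in TPM. TIMP4 had 201, 248 and 222 counts in the HP libraries against 2, 0 and 13 in LP.

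Of the matrix receptors, 5 of 14 tested genes were higher in LP and 1 in HP, against 24.1% and 27.1% of all tested genes. ITGB1, the beta chain shared by most collagen and laminin integrins, had 1, 4 and 4 counts in the HP libraries against 70, 40 and 30 in LP and was 20.5-fold higher in LP (edgeR adjusted p = 0.00103). ITGAV, SDC4 and GPC4, which encode an integrin alpha chain and heparan sulphate proteoglycans of the cell surface, were 3.67-fold, 5.08-fold and 6.16-fold higher in LP (edgeR adjusted p from 0.00133 to 0.00437). Among other matrix genes 8 of 19 were higher in LP and 4 in HP. EFEMP1, a fibulin gene, was 25.2-fold higher in LP, and AGRN, which encodes the basement membrane and synaptic proteoglycan agrin, was 4.45-fold higher in HP (edgeR adjusted p = 0.00235 and 0.00238). THBS4, a thrombospondin gene, had 2, 5 and 0 counts in the HP libraries against 627, 227 and 17 in LP (edgeR adjusted p = 0.00555), and EFEMP2 had 1, 0 and 0 and 45, 11 and 32 (edgeR adjusted p = 0.00185).

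The enzymes of hyaluronan and glycosaminoglycan synthesis had 1 of 10 tested genes higher in each group. HS6ST1, a heparan sulphate sulphotransferase gene, was 2.94-fold higher in HP, and UGDH, which makes the sugar precursor of glycosaminoglycans, was 3.23-fold higher in LP (edgeR adjusted p = 0.00671 and 0.0147). Genes of transforming growth factor beta, a main inducer of collagen genes, had 6 of 10 tested members higher in LP and 2 in HP. The shares of all tested genes higher in LP and in HP were 24.1% and 27.1%. SMAD2, SKIL and TGFBI were 13.2-fold, 7.36-fold and 10.3-fold higher in LP (edgeR adjusted p = 0.00132, 0.00323 and 0.00263), and SMAD3 was 4.55-fold higher in HP (edgeR adjusted p = 0.00212). SMAD2 had 1, 3 and 1 counts in the HP libraries against 15, 18 and 18 in LP.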

How the data were processed

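Gene expression was measured by Oxford Nanopore sequencing of PCR-amplified full-length cDNA in 6 samples, 3 in HP and 3 in LP, as the labels' protocols describe. The processing notes of the submitters list minimap2 2.17-r941 without its role. No source used here names the quantification tool, build or annotation. The authors deposited unscaled estimated counts, of which 24% to 29.8% per library were not whole. The TPM were scaled by the authors to 1 common total per sample, and how they treat length is not stated.

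Estimated counts were rounded (largest change of a library total, 101) and tested in R 4.3.3 with edgeR 4.0.16 (filterByExpr, TMM factors, quasi-likelihood test, two-sided, Benjamini-Hochberg adjustment over 13078 genes, threshold 0.05). The test was tried on simulated data. A log2 fold change is HP minus LP, and a fold is the higher over the lower group. Alternatives used DESeq2 1.42.0, limma 3.58.1 with voom, other scalings and filters, log2 TPM with a pseudocount of 1 or 0.1, and fits without each library. Members, classes and gene lists were chosen with earlier results of these data known. Each class is described by its calls, with up to 5 tested members of smallest p and members of 100 or more counts named, and each further list by up to 4 tested genes of smallest p. Members outside that rule were named after their counts were seen. Gene names were matched to RefSeq, which held all 77 members. With 3 sheep a group, no batch or pairing is stated. The values of 1 member are not reported here.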

Additional observations from a re-analysis of the deposited data

How the results depend on the processing

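Of the 18 members called, 7 (COL27A1, COL4A3, COL8A1, DCN, FBN1, HAPLN4 and VCAN) passed the threshold under every alternative in which they were tested, and 9 (these with LAMA4 and TNR) passed without each single library. No called member changed direction under an alternative. The number of members higher in LP, 15 of 30, was 7 to 27 without 1 library, and the number higher in HP, 3, was 3 to 5. Of all tested genes, 14.8% to 27.2% were higher in LP in these fits and 19.3% to 29.7% higher in HP. With both replicates numbered 3 left out, an alternative chosen after seeing the data, 5 were higher in HP. With log2(TPM + 1) and no filter 8 of 74 members were higher in LP, against 20.8% of all tested genes. The share of members was thus not above that of all genes in this fit. Their median log2 fold change was -0.23 instead of -1.84, against -0.16 for all tested genes. With a filter on TPM, 10 and 11 of 26 members were higher in LP with pseudocounts of 1 and 0.1. Of all tested genes, 31.1% and 30.5% were higher in LP in these 2 fits. DESeq2 gave 18 higher in LP and 4 in HP (25.2% and 25.9% of all tested genes), and limma-voom 12 and 4 (23.1% and 28.5%). COL5A2, COL11A1 and FMOD were not called with library totals, COL3A1, FBLN1 and FMOD with limma-voom, FMOD with a robust prior, and COL5A2 and FMOD without a filter. With TPM and no filter TNR, LAMA4, BGN, COL12A1, COL6A1, COL3A1 and FBLN1 were not called, nor was TNR with TPM and a pseudocount of 0.1 (adjusted p = 0.0502 by limma). FMOD was called in none of the 3 TPM fits. COL6A3 was higher in HP in all 3 TPM fits. Its TPM rest on implied lengths of 0.0666 in HP and 13.4 in LP, the latter from 2 counts, so these calls do not reflect counts alone. LAMB3 was higher in HP with TPM and a pseudocount of 1, without a filter on the counts, and without HP replicate 3, LP replicate 1 or LP replicate 3. Without 1 library, 2078 to 3779 of all genes were higher in LP, instead of 3151, and 2716 to 4134 higher in HP, instead of 3542. With TPM, 2209 genes (pseudocount 0.1) and 2251 (pseudocount 1, no filter) were higher in HP. Other matrix genes higher in LP, 34, were 18 of 67 tested with TPM and either pseudocount (31.1% and 30.5% of all tested genes). They were 30 of 158 with TPM and no filter (20.8%). Without 1 library they were up to 59, with a lowest count of 25. Of all calls, 52.9% were higher in HP, against 63% with library totals alone and 38.4% with TPM and a pseudocount of 1. Library totals moved the median of all genes from 0.02 to 0.27, and that TPM fit to -0.27. The summed level of lecticans, tenascins and link proteins, HP over LP, was -0.36 on the log2 scale in CPM and reversed to 0.28 in TPM. The cause was not tested. No paired analysis was possible because the sample titles number all 6 animals in 1 series and no label pairs them. The filter on low counts left 47 members without a test. With no filter 74 had one, and LAMB3, COL28A1, COL4A4, COL4A5, FN1 and LAMB1 were called among those added.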
